A study of Caenorhabditis elegans with 2 samples.

Results

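The 37 genes described here encode core parts and regulators of the pre-mRNA splicing machinery of Caenorhabditis elegans. They are all protein-coding genes of the Ensembl WBcel235 annotation whose symbols begin with snr-, rsp-, prp-, lsm- or uaf-, out of 19973 protein-coding genes on the nuclear chromosomes. There were 7 snr, 8 rsp, 13 prp, 7 lsm and 2 uaf genes. The rule uses names alone, but the families were chosen with earlier results of these data known. The question put to the data was where, and how strongly, the transcription factor COG-1 was found at these genes.

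COG-1, a homeodomain protein, was mapped by ChIP-seq, in which DNA bound by a precipitated protein is sequenced, in mid-embryos of hermaphrodites 3 h after synchronization by egg bleaching. The worms were of strain OP541, genotype unc-119(tm4063) III; wgIs541, in which the integrated transgene stably expresses COG-1 with GFP and FLAG at its C-terminal end, and an antibody against GFP was used. There was 1 group with 2 biological replicates. All values came from whole embryos, and no untagged or input sample was among those analysed, so no comparison between conditions was possible and the counts below are descriptions, set beside the share of all protein-coding genes.

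In splicing, the Sm proteins encoded by snr genes form a ring around the small nuclear RNAs of the U1, U2, U4 and U5 particles, and the LSm proteins form a related ring on U6 RNA. PRP proteins, named after yeast mutants, build and rearrange the spliceosome, U2AF marks the end of the intron, and the SR proteins encoded by rsp genes bind exons and guide the choice of splice sites. Splicing is a general function of cells and is not tied to a tissue. The label "splicing factor" is loose for lsm-1, since its protein is best known from the cytoplasmic LSm ring that acts in mRNA decay. RefSeq product names fitted the family except at snr-3, rsp-8, prp-9 and prp-40, which carried only the name of a domain, and prp-21, which was listed as uncharacterized.

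COG-1-GFP peaks lay at 14 of the 37 splicing factor genes (37.8%, exact 95% interval 22.5 to 55.2), against 6.82% of all protein-coding genes. Among all other protein-coding genes it was 1348 of 19936 (6.76%), so the share at splicing factor genes was 5.60 times as high. A gene counted as holding a peak when a summit of the thresholded list lay at most 1000 bp before or 500 bp after the start of the annotated gene. That list held 1841 peaks selected with the irreproducible discovery rate (IDR), and they were the 1841 regions of highest signal among the 22583 regions called on the pooled replicates. The intervals cover counting error over genes only. The read depth is unknown here.

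The sequences under 8 of the 13 peaks at these genes are shown first. They were selected from the 10 of the 13 peaks that hold GCTCCA or TGCGTC, letters that recur between genes. These letters were picked out after the sequences had been read. The peaks of rsp-7 and lsm-7 hold TGCGTC but are not shown, and those of prp-40, snr-4 and snr-2 hold neither. Each is the 101 bases centred on a summit, on the strand of the named gene, read from the RefSeq WBcel235 genome, whose coordinates are those of ce11. Capitals mark the letters TAATTA or GCTCCA or TGCGTC, or their reverse complements. The windows are chrIV:17087547-17087647 (snr-1), chrIV:7791361-7791461 (rsp-6), chrIII:5172651-5172751 (prp-19), chrIII:8163998-8164098 (prp-8), chrIII:12688170-12688270 (rsp-3), chrIII:12429815-12429915 (snr-6), chrIV:13386218-13386318 (lsm-3) and chrII:11453188-11453288 (the peak between rsp-1 and rsp-2, on the strand of rsp-1).
snr-1: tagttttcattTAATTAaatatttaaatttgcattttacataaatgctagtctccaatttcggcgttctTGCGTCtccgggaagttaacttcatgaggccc
rsp-6: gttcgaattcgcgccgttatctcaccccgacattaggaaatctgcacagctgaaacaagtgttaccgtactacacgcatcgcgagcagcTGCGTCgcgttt
prp-19: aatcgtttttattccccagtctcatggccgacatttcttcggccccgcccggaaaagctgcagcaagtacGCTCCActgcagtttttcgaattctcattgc
prp-8: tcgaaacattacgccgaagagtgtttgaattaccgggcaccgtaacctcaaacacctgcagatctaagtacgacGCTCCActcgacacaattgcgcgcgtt
rsp-3: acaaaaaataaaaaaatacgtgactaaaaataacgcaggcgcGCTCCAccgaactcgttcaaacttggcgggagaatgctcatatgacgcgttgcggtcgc
snr-6: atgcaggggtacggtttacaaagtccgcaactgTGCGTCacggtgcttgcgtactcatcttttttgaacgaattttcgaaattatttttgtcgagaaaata
lsm-3: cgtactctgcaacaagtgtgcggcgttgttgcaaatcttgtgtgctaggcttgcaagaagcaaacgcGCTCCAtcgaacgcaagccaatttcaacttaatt
rsp-1/rsp-2: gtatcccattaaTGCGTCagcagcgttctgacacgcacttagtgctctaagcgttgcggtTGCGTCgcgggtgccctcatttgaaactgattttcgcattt

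TAATTA, which holds the TAAT core bound by many homeodomains, occurred within 50 bp of the summit at 1 of 13 splicing factor gene peaks, that of snr-1, and at 49 of all 1841 peaks (2.66%). In windows of the same length centred 300 bp upstream of every protein-coding gene start its share was 5.67%. The longer TTAATTA was also found at snr-1 alone, and in 1.36% of all peaks and 3.26% of the gene-start windows. GAGAGA, present in 28.9% of all peaks and 6.11% of the gene-start windows, and CACGTG, present in 2.72% and 1.56%, occurred in 0 of the 13. Of the 1033 peaks near the starts of all other protein-coding genes, 24.3% had GAGAGA and 2.61% had CACGTG. These 1033 are not a separate group. They include every peak of the 13 except those of rsp-6, snr-4 and the rsp-1/rsp-2 pair, because the rest also lie near another gene's start.

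The other capitals mark letters picked out after the sequences had been read, so their counts at the splicing factor genes are a description of what was seen. GCTCCA occurred at 4 of the 13 peaks, those of prp-19, prp-8, rsp-3 and lsm-3. It was in 5.70% of all peaks and 3.59% of the gene-start windows. Of the 1033 peaks near the starts of all other protein-coding genes, 8.23% had it, and these include the 4 named here. TGCGTC occurred at 6 of the 13, those of snr-1, rsp-6, rsp-7, snr-6, lsm-7 and the rsp-1/rsp-2 pair, which had it more than once. TGCGTC was also common elsewhere, in 18.6% of all peaks and 18.2% of the same 1033 peaks, against 2.56% of the gene-start windows. Both strands were searched, and TTAATTA contains TAATTA. The median share of G and C in the 101 bases was 50.5% at the splicing factor gene peaks, with a range from 34.7% at snr-1 to 55.4% at prp-40, and 47.5% over all peaks.

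Among the Sm protein genes, 4 of 7 held a peak (57.1%, exact 95% interval 18.4 to 90.1), against 6.82% of all protein-coding genes. By nearest start alone it was 2 of 7, against 5.01% of all protein-coding genes. In the 921 strongest peaks it was 1 of 7, against 3.51%. The strongest of all 37 genes was snr-1, which encodes SmD3, with a peak at chrIV:17087510-17087741 and a signal of 286, rank 58 of 1841. Signal is the value that the authors' peak caller gave each region, and it is used here only to order regions within a list. The summit lay 452 bp upstream of the snr-1 start and 159 bp upstream of the start of snx-13, the divergent neighbour. It ranked 96 with a signal of 110 in replicate 1 and 50 with a signal of 177 in replicate 2, so both replicates placed it near the top of their own lists of 21617 and 20247 regions.

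The other 3 Sm gene peaks were of lower signal. At snr-2, which encodes SmB, the signal was 104 (chrI:13338873-13339322, rank 1058, summit 299 bp upstream). At snr-6, which encodes SmE, the peak had rank 1152 (chrIII:12429640-12430089, summit 236 bp upstream). At snr-4, which encodes SmD2, the signal was 92.2 (chrV:11979872-11980321, rank 1327, 374 bp upstream). The snr-4 summit lay inside the non-coding RNA gene C52E4.14 and within 500 bp of the small nuclear RNA gene T11F9.15, the only small nuclear RNA gene that near to the strongest region of any of the 37 genes. Reads from such a gene and from the snr-4 promoter cannot be told apart here.

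The remaining Sm genes had weaker regions in the pooled list, which also holds background. These were snr-7, which encodes SmG (signal 47.9, q = 0.220), snr-3, which encodes SmD1 (signal 47.5, q = 0.232), and snr-5, which encodes SmF (q = 0.511). All were below the lowest signal of the IDR list, 77.7. Any pooled region was thus found at 7 of 7 Sm genes, against 36.1% of all protein-coding genes, and 3 of these regions did not pass a q-value of 0.05.

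Of the 7 lsm genes, 2 held a peak (28.6%, exact 95% interval 3.67 to 71.0), against 6.82% of all protein-coding genes. By nearest start alone it was 0 of 7, against 5.01% of all protein-coding genes, and in the 921 strongest peaks 0 of 7, against 3.51%. In the 1841 strongest regions of replicate 2 it was 1 of 7, against 6.75%. The summit at lsm-7 (chrIV:10933050-10933499, signal 97.2, rank 1203) lay 227 bp upstream of its start and 72 bp upstream of the start of dnc-1, which encodes a dynactin subunit. At lsm-3 (chrIV:13386043-13386492, signal 89.5, rank 1404) the summit was 935 bp upstream, at the edge of the window, and lay in the windows of mdt-9, Y62E10A.20 and Y62E10A.23 as well. The pooled list had weaker regions at lsm-6 (signal 52.9, q = 0.121) and lsm-5 (signal 36.9, q = 0.589). At lsm-1, lsm-4 and lsm-8 it had none.

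Of the 13 prp genes, 3 held a peak (23.1%, exact 95% interval 5.04 to 53.8), against 6.82% of all protein-coding genes. In the 1841 strongest regions of replicate 2 it was 5 of 13, against 6.75% of all protein-coding genes. The 3 in the IDR list were prp-19, prp-40 and prp-8, whose proteins act at different steps of splicing. The prp-19 gene encodes the ubiquitin ligase at the core of the PRP19 complex, and its peak (chrIII:5172631-5172757, signal 136, rank 584) lay 656 bp upstream of its start but 19 bp upstream of the start of K10D2.5. The prp-40 gene encodes a protein that acts with the U1 particle, and its summit lay 138 bp upstream (chrIII:9521712-9522161, signal 126, rank 690). The summit at prp-8, which encodes the large U5 protein at the catalytic centre, lay 325 bp upstream (chrIII:8163823-8164272, signal 104, rank 1065).

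The prp genes also supplied most of the regions below the IDR list that had a pooled q-value under 0.05. At prp-21 (signal 72.4, q = 0.00457) and prp-9 (signal 64.5, q = 0.0170), which encode subunits of the SF3a complex of the U2 particle, and at prp-31 (signal 63.7, q = 0.0205), which encodes a protein of the tri-snRNP, the pooled region had a q-value under 0.05. The only other gene of this kind was uaf-2, which encodes the small subunit of U2AF (signal 59.5, q = 0.0472). In replicate 1 the regions at prp-21, prp-9, prp-31 and uaf-2 had q-values of 0.5, 0.541, 0.601 and 0.131. In replicate 2 their q-values were 0.000306, 0.00241, 0.012 and 0.0323. Just inside the IDR list was the rsp-1/rsp-2 pair with a signal of 85.7, and the gene just outside was prp-21. Regions at prp-17, prp-6 and prp-4 had signals from 29.9 to 36.3 and q-values from 0.612 to 0.838. No pooled region lay at prp-3, prp-18, prp-38 or prp-39, or at uaf-1, which encodes the large subunit of U2AF.

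Of the 8 SR protein genes, 5 held a peak (62.5%, exact 95% interval 24.5 to 91.5), at 4 distinct regions, against 6.82% of all protein-coding genes. In the 1841 strongest regions of replicate 1 it was 2 of 8, against 6.49% of all protein-coding genes. By nearest start alone it was 2 of 8, against 5.01%, and in the 921 strongest peaks 1 of 8, against 3.51%. The strongest lay 182 bp upstream of rsp-6 (chrIV:7791186-7791635, signal 147, rank 490) and in the window of no other gene. At rsp-7 (chrII:10658672-10659121, signal 105, rank 1017) the summit lay 309 bp upstream, between it and snu-13, which encodes another spliceosome protein, and inside the non-coding RNA gene M28.13. At rsp-3, the orthologue of mammalian SRSF1, it lay 298 bp upstream (chrIII:12687995-12688444, signal 103, rank 1072). The genes rsp-1 and rsp-2 start 407 bp apart on opposite strands and shared the peak between them (chrII:11453013-11453462, rank 1556), with the summit 124 bp from rsp-1 and 283 bp from rsp-2. Weaker regions lay at rsp-5 (signal 47.5, q = 0.232) and rsp-8 (signal 46.6, q = 0.257), and none at rsp-4.

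**Figure D1:**
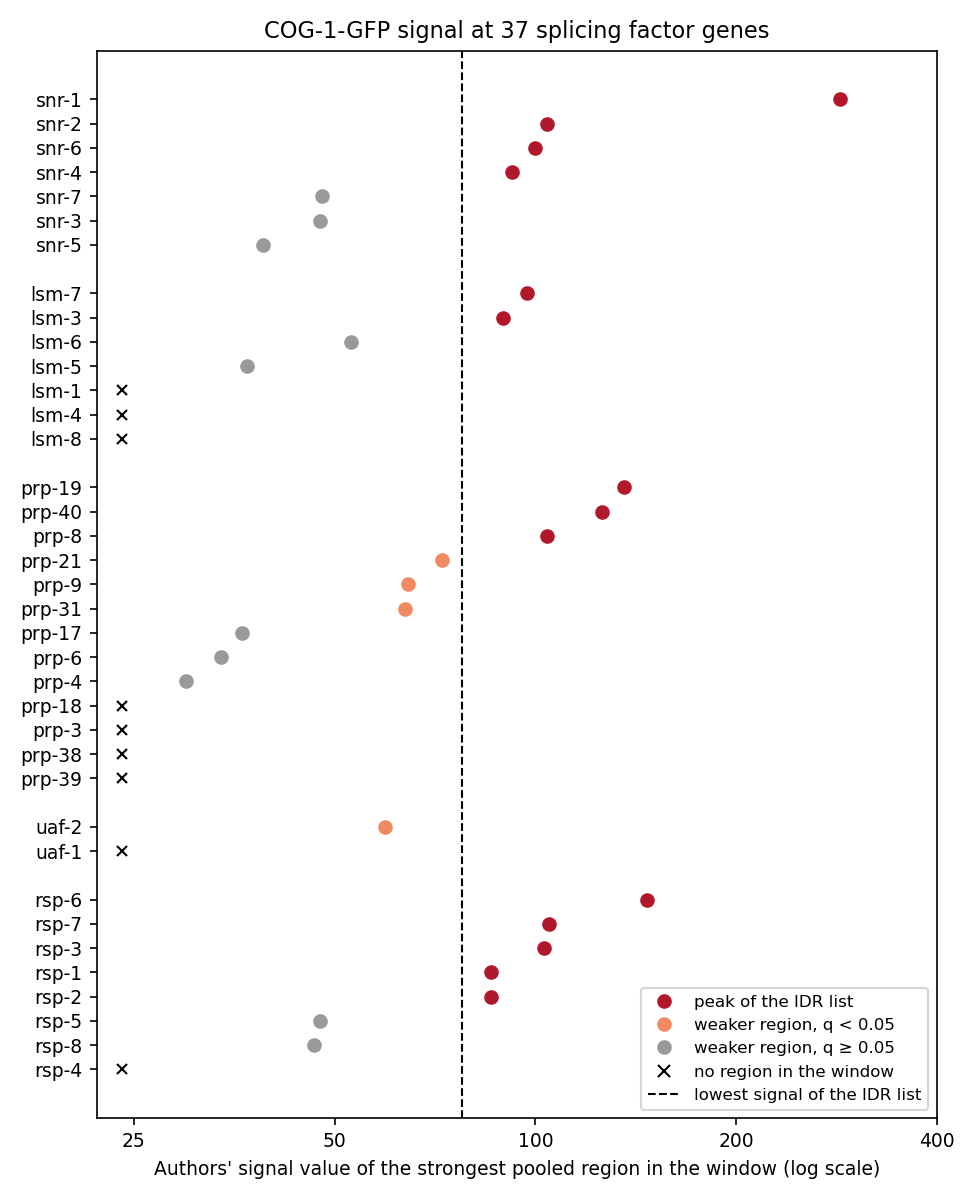
Signal value given by the authors' caller (log scale) of the strongest pooled region in the window of each of the 37 genes, grouped by family, with 1 point per gene from the pooled replicates. Of the 37 genes, 14 lie right of the lowest signal of the IDR list, 77.7, and snr-1 at 286 stands apart from the rest, which reach 147; crosses at the left edge mark the 9 genes with no region and carry no value.

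Most of the peaks at splicing factor genes were of middle or lower rank. The 13 distinct peaks had a median signal of 104 and a median rank of 1065, against 111 and 916 for the 1033 peaks in the windows of all other protein-coding genes. Those 1033 include most of the 13, which also lie in the window of a neighbour. Only 4 of the 13 were among the 921 strongest peaks, those of snr-1, rsp-6, prp-19 and prp-40. Counted on these 921 alone, 4 of the 37 genes held a peak (10.8%, exact interval 3.03 to 25.4), against 3.51% of all protein-coding genes. That interval includes 3.51%. It covers counting error over genes only, the families were chosen with earlier results of these data known, and no test was run. Counted instead on all pooled regions with a q-value under 0.05, 18 of 37 splicing factor genes held one (48.6%), against 10.4%. The genes this adds, prp-21, prp-9, prp-31 and uaf-2, had q-values over 0.05 in replicate 1. Any pooled region at all was found at 28 of 37 (75.7%), against 36.1%.

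The replicates differed in the rank they gave some of these peaks. Each of the 13 peaks had its counterpart in the separate list of each replicate, as did 1833 of all 1841 peaks. Of the 13, 10 were among the 1841 strongest regions of replicate 1, against 81.8% of all peaks. In replicate 2 it was 11 of 13, against 85.8%. A place among the strongest regions of both replicates was held by 8 of the 13 (61.5%), and by 69.2% of all peaks. The median distance between the pooled summit and that of the replicate was 6 bp in replicate 1 and 9 bp in replicate 2, with a largest value of 89 bp at lsm-7.

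Some of the peaks were far stronger in rank in replicate 2. At the rsp-1/rsp-2 pair the region had rank 9920 and q = 0.746 in replicate 1, and rank 909 and q = 0.000306 in replicate 2. At snr-4 the ranks were 3979 and 957, with q = 0.330 in replicate 1. At rsp-7 they were 2310 and 666, with q = 0.0851 in replicate 1. The reverse was seen at snr-2, which ranked 481 in replicate 1 and 2684 in replicate 2 (q = 0.0114 there), and at lsm-3, with ranks of 916 and 2036. Ranks and q-values come from lists of unequal length, and signals were not compared between them.

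Taking the 1841 strongest regions of a single replicate as its peaks, instead of the IDR list, 14 of 37 splicing factor genes held a peak in replicate 2, against 6.75% of all protein-coding genes. In replicate 1 it was 10 of 37, against 6.49%. Relative to the IDR list, replicate 2 alone had prp-18 and prp-21 in place of lsm-3 and snr-2, and replicate 1 alone lacked rsp-1, rsp-2, rsp-7 and snr-4.

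**Figure D2:**
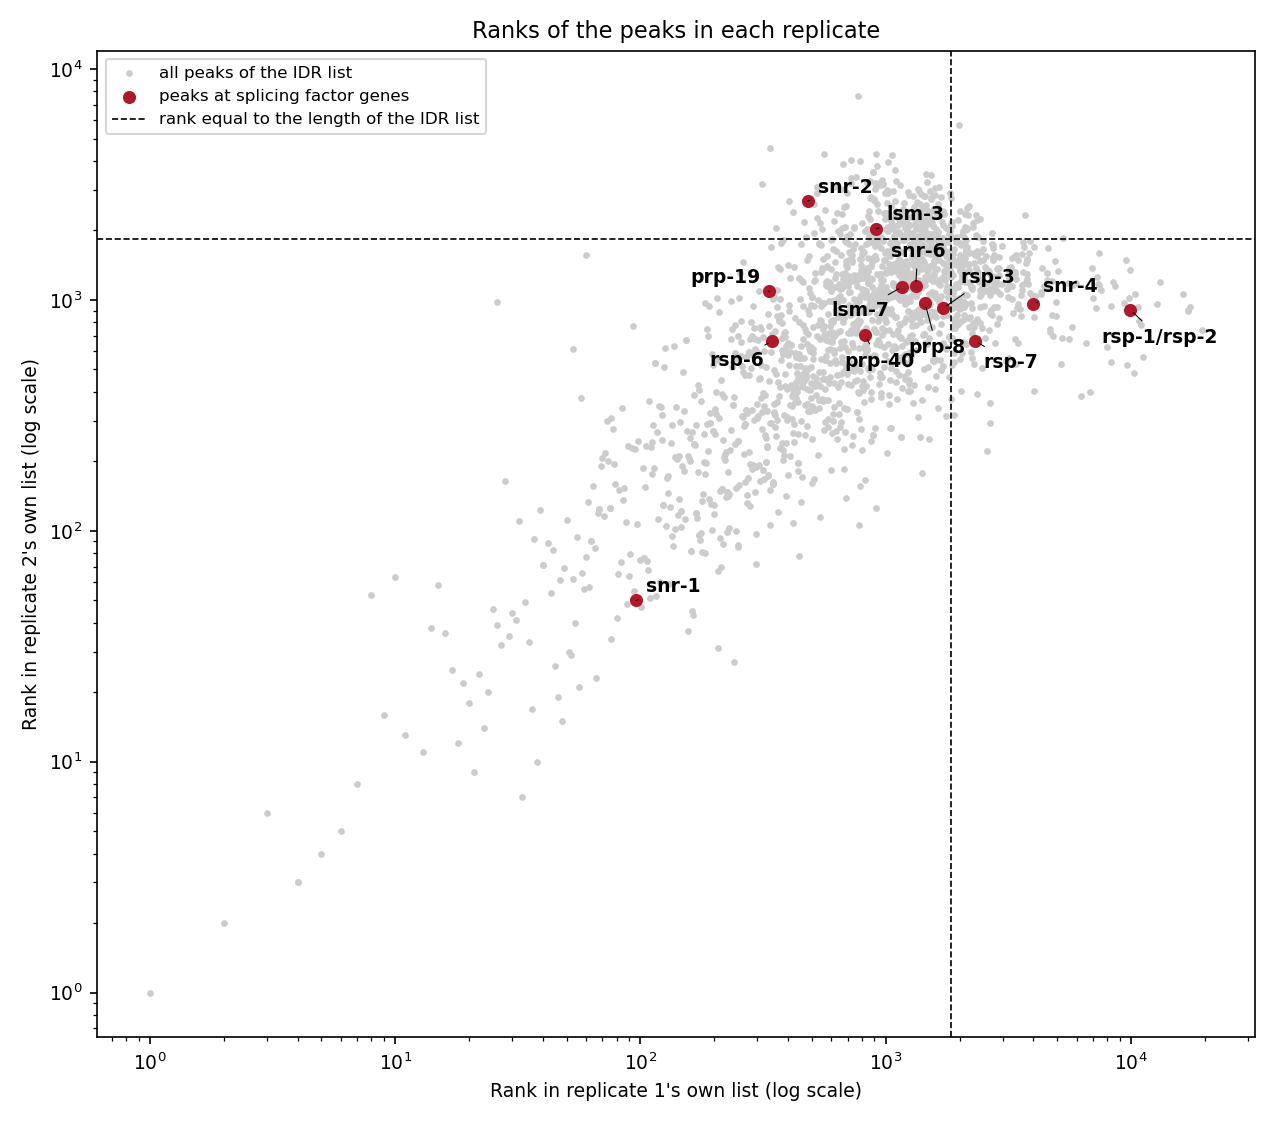
Rank of each IDR peak in the own list of replicate 1 (x axis) and replicate 2 (y axis), both on log scales, with 1 point for each of the 1833 peaks that had a region in both lists and the 13 distinct peaks at splicing factor genes in red; 8 peaks with no region in 1 of the lists are not drawn. The dashed lines stand at rank 1841; snr-4, rsp-7 and the rsp-1/rsp-2 pair lie beyond it in replicate 1, and snr-2 and lsm-3 in replicate 2.

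All 14 gene and peak pairs had the summit upstream of the start, at a median of 298.5 bp and from 124 to 935 bp. For all other protein-coding genes 93.4% of pairs were upstream, at a median of 255 bp. Distances were measured to the annotated start of the gene, which need not be where transcription starts. From 50 to 500 bp upstream lay 12 of the 14 pairs (85.7%), against 68.8% for all other genes. In 11 of the 13 peaks the summit lay in intergenic sequence, and at rsp-7 and snr-4 in an exon of a non-coding RNA gene. The share of all peaks in intergenic sequence is not given here, so this count has no reference beside it. A tRNA gene was within 500 bp of 0 of the 13 peaks at splicing factor genes and of 142 of all peaks (7.71%).

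The peaks were mostly shared with a neighbouring gene. Of the 13 peaks, 11 (84.6%) lay in the window of more than 1 protein-coding gene, against 356 of 1036 (34.4%) of all peaks in such windows. The splicing factor gene had the nearest start at 6 of the 14 pairs, rsp-6, prp-40, prp-8, snr-6, snr-4 and rsp-1. For snr-1, prp-19, rsp-7, snr-2, rsp-3, lsm-7, lsm-3 and rsp-2 the start of another gene was nearer. With each peak given to its nearest start alone, 6 of 37 splicing factor genes held a peak (16.2%), against 5.01% of all protein-coding genes. Which gene of a pair a peak belongs to cannot be told apart from position.

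**Figure D3:**
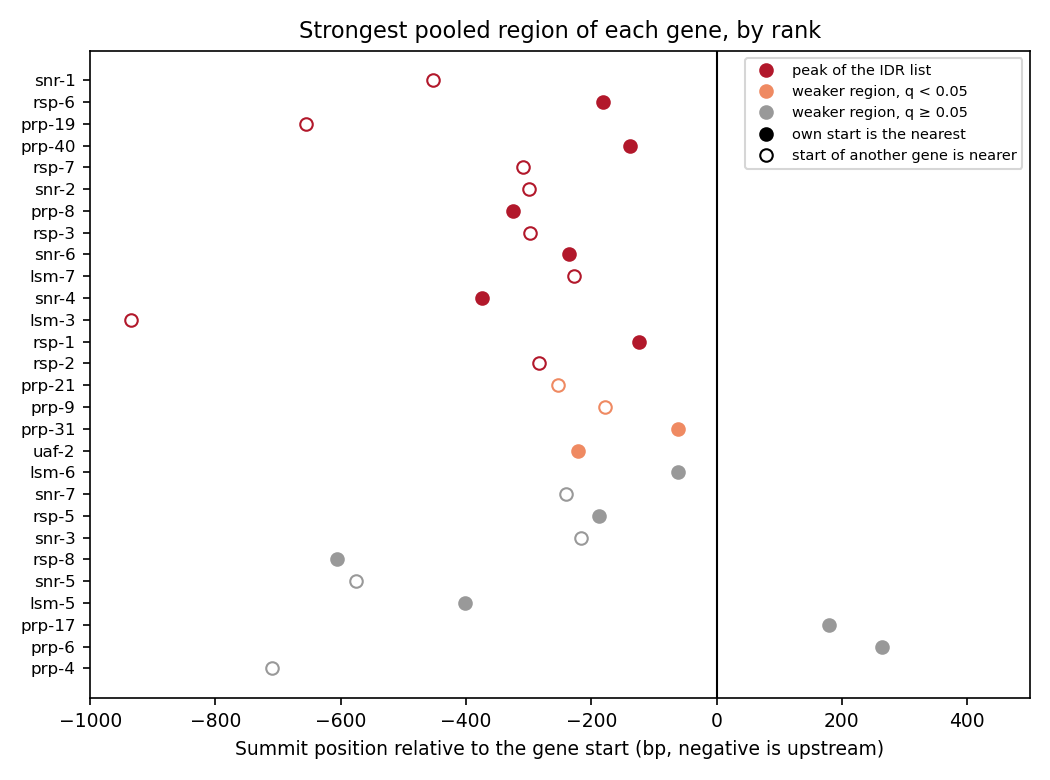
Position of the summit relative to the gene start (x axis, bp, negative is upstream) for the strongest pooled region at each of the 28 splicing factor genes that had one, from the strongest at the top to the weakest at the bottom. Every IDR peak lies upstream, from 124 to 935 bp; filled points mark genes whose own start is the nearest to the summit, which holds for 6 of the 14 IDR pairs.

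Many splicing factor genes start back to back with another gene. A divergent neighbour, that is a protein-coding gene on the opposite strand that starts within 1000 bp upstream, with no gene of the same strand ending nearer, was found for 22 of 37 (59.5%), against 17.3% of all other protein-coding genes. In this class 11 of 22 splicing factor genes held a peak (exact 95% interval 28.2% to 71.8%), against 17.1% of all protein-coding genes with this arrangement. The divergent partners were of many kinds, among them clu-1 for prp-40, bath-42 for prp-8, spin-4 for rsp-3 and W08E3.4 for snr-2. The partner was itself a splicing gene in 3 pairs, rsp-1 and rsp-2, rsp-5 and snr-3, and rsp-7 and snu-13.

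Another 10 splicing factor genes lay close downstream of a gene on the same strand, which ended within 1000 bp upstream or ran over the start. Of these, 3 held a peak (30.0%), snr-4, lsm-3 and rsp-6, against 4.06% of all protein-coding genes of this arrangement. Of the 5 with neither neighbour, lsm-4, prp-6, rsp-8, snr-5 and uaf-1, none held a peak, against 5.04%, and a count of 0 of 5 allows a share of up to 52.2%. At the rates of other genes with the same arrangement, 4.36 of the 37 genes would hold a peak, and 14 did, 3.21 times as many, at 13 distinct peaks. Within the 1000 bp limit of the classes, distance to the neighbour was not matched. Arrangement and distance to neighbours differ between splicing factor genes and other genes, and what part they have in the count was not tested.

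**Figure D4:**
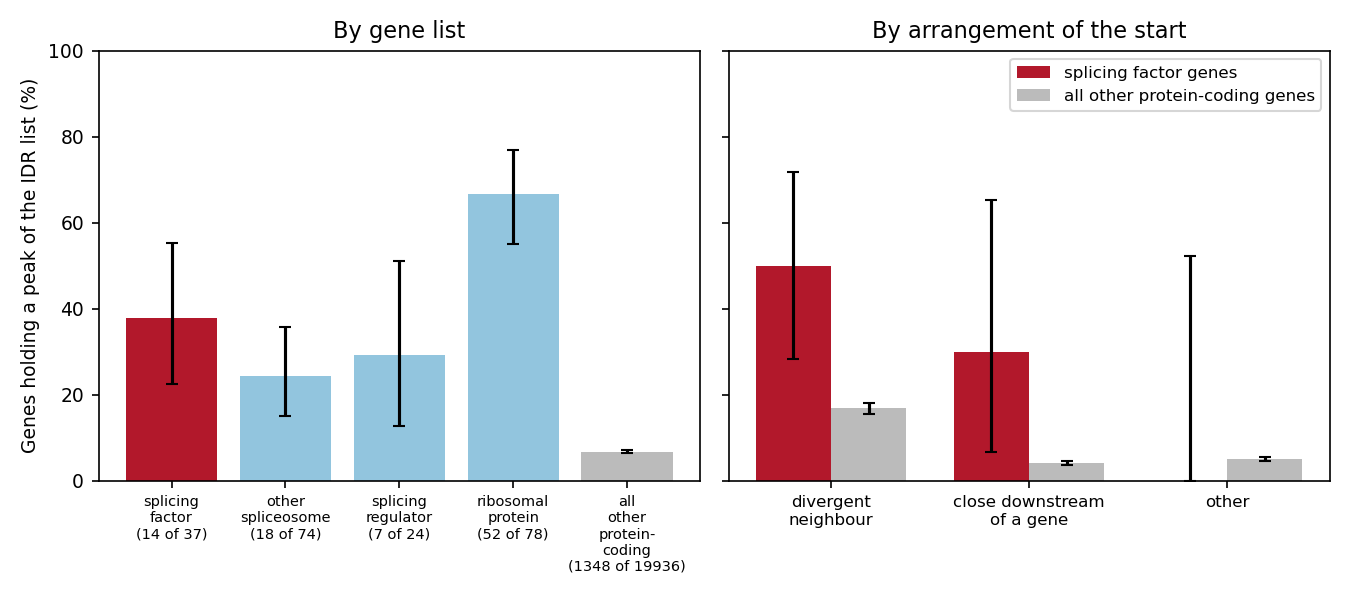
Share of genes holding a peak of the IDR list (y axis, percent), by gene list on the left and by the arrangement of the gene start on the right, with bars for shares and lines for exact 95% intervals over genes. Splicing factor genes held peaks at 37.8% against 6.76% for all other protein-coding genes; within divergent starts 11 of 22 splicing factor genes held a peak, against 16.9% of all other genes, and within starts close downstream of a gene 30.0% did, against 4.02%.

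Many C. elegans genes are transcribed together from the promoter of an upstream gene, as operons, and their transcripts are then separated by trans-splicing. No operon annotation was used here, and whether any pair below is an operon was not tested, but the start of the upstream neighbour can be examined in the same way. Of the 10 splicing factor genes close downstream of another, 6 had an upstream neighbour that held a peak (60.0%), against 9.40% of all other protein-coding genes in this position. For 5 of the 6 the splicing factor gene itself held none, and lsm-3 shared its peak with its neighbour mdt-9. At lsm-3 and rsp-4 the neighbour ran over the start of the splicing factor gene. The strongest was at plrg-1, which encodes another spliceosome protein and ends 106 bp before prp-38, with a signal of 234, rank 123, and a summit 200 bp upstream. The neighbours of lsm-6, lsm-8, rsp-4 and prp-39 were ubc-3 (signal 140, rank 536), sqd-1 (signal 122, rank 737), ndx-6 (signal 106, rank 998) and hmgs-1 (signal 101, rank 1121), with summits 283, 302, 227 and 114 bp upstream of their starts.

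Counting a peak at either start, 19 of 37 splicing factor genes (51.4%) were covered, against 9.38% of all other protein-coding genes. The 9 genes with no pooled region included prp-38, prp-39, lsm-8 and rsp-4, whose upstream neighbours held a peak. The nearest IDR summit upstream lay 2078 bp from the start of prp-38, 2073 bp from prp-39, 2654 bp from lsm-8 and 1272 bp from rsp-4.

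Peaks were also found at splicing genes outside these name families. In a list of 74 other spliceosome genes, 18 held a peak (24.3%, exact 95% interval 15.1 to 35.7), and in a list of 24 splicing regulators 7 did (29.2%, 12.6 to 51.1), against 6.82% of all protein-coding genes. The 18 include snu-13, whose peak is the one already counted for rsp-7. In alphabetical order, the spliceosome genes with a peak included the RNA helicase genes hel-1 (signal 149, rank 474) and mog-4 (signal 124, rank 715), then plrg-1 (signal 234, rank 123), the U5 protein gene snrp-40.1 (signal 152, rank 441), syf-2 (signal 149, rank 465), usp-39 (signal 110, rank 935) and wbp-4 (signal 144, rank 509). The regulators were swp-1, hrpa-1, asd-1, rbm-39, etr-1, hrpf-1 and grld-1, and their lowest signal was 94.6, at grld-1. The intervals of these lists overlapped that of the 37 genes, and differences between the lists were not tested. For scale, 52 of 78 genes named rpl or rps for ribosomal proteins held a peak (66.7%), against the same 6.82%.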

How the data were processed

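The authors deposited region lists per replicate, for both replicates pooled and after IDR thresholding. Per the file listing deposited with them, each list derived from the replicates' alignments and 1 further file, which also went into tracks called control normalized. Which aligner and caller were used, and with which thresholds, is not given in the sources used here. A signal value from the authors per region served as a score for ranking within a list. Their q-values, deposited on the −log10 scale with a highest value of 3.45 in the pooled list, were converted to q. The 4 ce11 lists were used, in which 0 regions ran past a chromosome end of WBcel235. The ce10 lists were not used.

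Summits were assigned to gene starts with Python 3.11.15, numpy 2.4.6 and pandas 2.3.3, and tested on planted positions. Exact binomial (Clopper-Pearson) 95% intervals came from scipy 1.17.1. No test was run, since there was 1 group of 2 replicates. The gene lists, like the families, were chosen with earlier results of these data known. Of 93 spliceosome and 30 regulator symbols, 74 and 24 matched a protein-coding gene. All 37 genes could be named, with full values for the 14 with a peak and the 8 next by rank, and up to 8 of each other list, of which 1 spliceosome gene is not reported here. Of the motifs, GCTCCA and TGCGTC were chosen after the sequences were read.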

Additional observations from a re-analysis of the deposited data

How the results depend on the processing

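The share of splicing factor genes with a peak stayed above that of all other protein-coding genes under all 10 alternatives, by 3.09 to 6.05 times. Counting only the gene with the nearest start, it was 6 of 37 genes (16.2%, 3.25 times) where the main count had 14. By this rule it was 14 of 74 other spliceosome genes (18.9%), a higher share than at the 37 genes. It was also 4 of 24 splicing regulators (16.7%), where the main count had 7. By the same rule the share of all protein-coding genes was 5.01%. In the 921 strongest peaks 4 of 37 splicing factor genes held a peak (10.8%, 3.09 times), against 3.51% of all protein-coding genes. The exact interval of that share, 3.03 to 25.4, includes 3.51%. In these 921 peaks 7 of 74 other spliceosome genes (9.46%) and 2 of 24 splicing regulators (8.33%) held one. A window from 500 bp upstream to 250 bp downstream left 12 of 37 splicing factor genes (32.4%), without lsm-3 and prp-19. It left 4 of 24 splicing regulators (16.7%), and 5.36% of all other protein-coding genes. Leaving out each replicate in turn gave 10 to 14 of 37 splicing factor genes, against 6.49% to 6.75% of all protein-coding genes. It gave 12 to 17 of 74 other spliceosome genes and 6 to 7 of 24 splicing regulators. A window of 2000 bp upstream added rsp-4, any overlap of the region added snr-7, and transcript starts or leaving out peaks near tRNA genes changed no member. No paired analysis was possible because the series has 1 group. With 37 genes and unknown depth, a gene without a peak is not shown to lack COG-1.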

Other observations

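At prp-18, which encodes a factor of the later step of splicing, both replicates had a region that the pooled list lacked. In replicate 1 it lay at chrIV:9884237-9884680, 76 bp upstream of the start, with rank 4906 and q = 0.446. In replicate 2 it lay at chrIV:9884250-9884693, 89 bp upstream, with a signal of 51.8, rank 1440 and q = 0.000306. Of the 1841 strongest regions of replicate 2, 17 (0.923%) overlapped no pooled region, and of those of replicate 1 it was 12 (0.652%). The cause was not tested.

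The letters TTTCAG, the usual end of a C. elegans intron and of the stretch before a trans-splice site, stood directly before the annotated start at 13 of the 37 splicing factor genes (35.1%), against 12.2% of all other protein-coding genes. Among these 13 genes, 6 held a peak (46.2%), and among the 24 without the letters 8 did (33.3%). For all other protein-coding genes the shares were 13.8% and 5.78%. Whether these starts are trans-splice sites was not tested, and the summit distances given above were measured to them.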
